A study of Xenopus laevis with 12 samples.

Results

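Melanin and melanosome genes encode the enzymes, matrix proteins and transporters with which a pigment cell makes melanin inside the melanosome, its pigment organelle. They were followed in whole heads of Xenopus laevis (the African clawed frog) by RNA sequencing. The members were taken by symbol from a set of 9 (dct, tyrp1, tyr, pmel, mlana, slc24a5, slc45a2, gpr143 and oca2). A gene table of the assembly Xenopus_laevis_v10.1 matched 7 of these symbols to 11 of the 37018 genes counted, and tyr and oca2 are not analysed here. X. laevis carries a duplicated genome, and the endings .L and .S name the 2 homeologs (duplicate copies) of a gene. Both were matched for tyrp1, pmel, slc24a5 and gpr143, and the .L copy for dct, mlana and slc45a2. A filter on low counts left 10 of the 11 members among the 27050 genes tested, and tyrp1.S was the member it removed. The set was drawn up with differences between thioridazine and control heads at both stages already known, so these differences are given as a description.

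The study placed wild-type control tadpoles beside tadpoles with faces malformed after exposure to thioridazine, a phenothiazine antipsychotic and dopamine receptor blocker. Per the labels' protocols the exposure was to 90 µM at 18 °C from stage 14 to stage 26 of the NF (Nieuwkoop and Faber) table, control embryos stood at the same temperature, and all were then returned to 14 °C. Whole heads were taken at NF stages 45 and 47, which gave 4 groups (control and thioridazine at each stage) of 3 libraries. The labels describe the treated animals as malformed, name no solvent for the controls, and give neither the clutch nor the number of heads behind a library. The p-values below therefore cover the spread among the libraries, which may be technical in part.

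In vertebrates melanin is made from tyrosine inside melanosomes. Tyrosinase starts the synthesis, and its relatives Dct and Tyrp1 act on later intermediates. The amyloid protein Pmel forms the fibrils on which melanin is laid down, Mlana is a small membrane protein that takes part in Pmel processing, and Slc24a5 and Slc45a2 are membrane transporters that affect ion balance and pH in the organelle. A tadpole head holds melanosomes in melanophores of the skin and the linings of the brain, which come from the neural crest, and in the retinal pigment epithelium of the eye, which comes from the neural tube.

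A library held between 11998636 and 16933777 counts. Transcripts of the labelled tissue were present in every group, among them rhodopsin of the eye (rho.L, group means of 1039 to 1303 CPM, where CPM is a gene's count scaled to a common library size), the cartilage collagen col2a1.L (581 to 824 CPM) and the synaptic gene snap25.L (139 to 193 CPM). All levels are CPM on library sizes scaled by trimmed means (TMM), and they are not divided by transcript length, so levels are compared between libraries and not between genes. The members' counts ran from 0 to 4 for tyrp1.S and from 1513 to 4523 for tyrp1.L.

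In heads of thioridazine-treated tadpoles most melanin and melanosome transcripts stood higher than in controls at stage 45 and again at stage 47, by between 1.49-fold and 2.25-fold for 8 of the 10 tested members. The members that stood apart were slc24a5.S and gpr143.L, whose groups overlapped at both stages. Summed over the 11 members, the level was 429, 520 and 417 CPM in control replicates 1, 2 and 3 of stage 45 and 695, 833 and 833 CPM in the treated replicates. At stage 47 the sum was 335, 325 and 415 CPM in controls and 596, 668 and 918 CPM in treated heads. Every treated library lay above every control library of its stage, with a ratio of mean sums of 1.73 at stage 45 and 2.03 at stage 47. These levels are relative to all counts of a library and are not absolute amounts of RNA. In bulk tissue more pigment cells and more of these transcripts per pigment cell cannot be told apart.

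**Figure D1:**
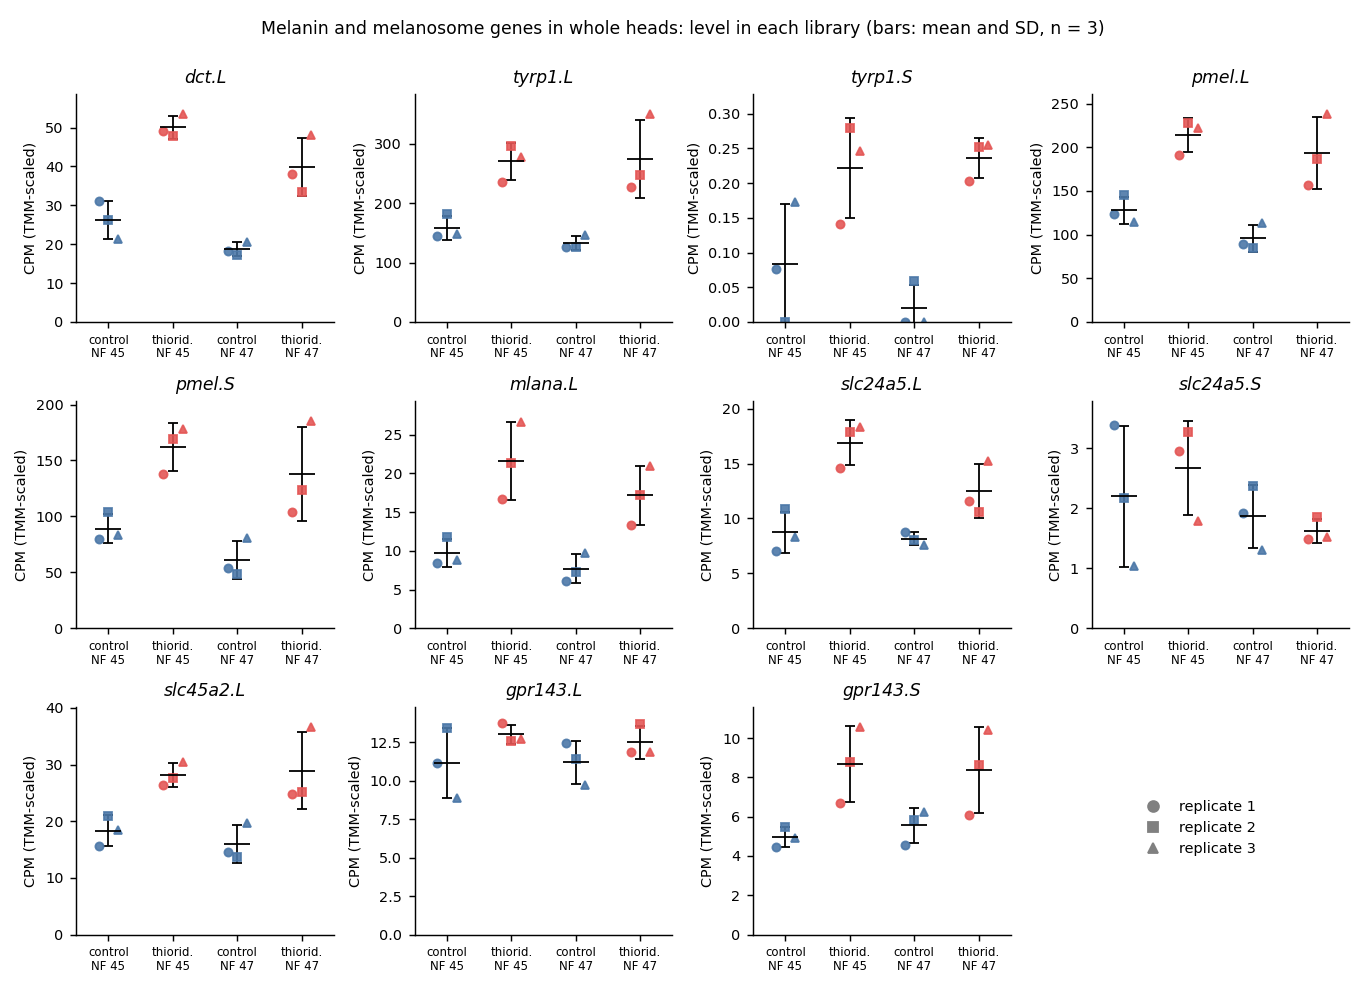
Level of each of the 11 members in the 12 libraries (y axis: TMM-scaled CPM, each panel on its own scale from 0; x axis: the 4 groups of treatment and NF stage; points: libraries by replicate number; bars: mean and SD, n = 3). The treated libraries of dct.L, tyrp1.L, pmel.L, pmel.S, mlana.L, slc24a5.L and slc45a2.L lie above all control libraries of the same stage, whereas those of slc24a5.S and gpr143.L overlap with the controls.

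Among the enzymes of melanin synthesis, dct.L (gene 100381161, dopachrome tautomerase) had levels of 31.1, 26.1 and 21.3 CPM in the stage 45 controls (replicates 1, 2 and 3 in this order, as throughout) and 49.1, 47.8 and 53.4 CPM in the treated heads. The stage 47 levels were 18.3, 17.2 and 20.7 CPM in controls and 38.1, 33.3 and 48.0 CPM in treated heads. The groups did not overlap at either stage, and even the lowest treated library of stage 47 was above the highest control library of stage 45. The log2 fold change was 0.94 (SE 0.15) at stage 45 and 1.09 (SE 0.15) at stage 47.

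The related enzyme gene tyrp1.L (gene 380184) stood at 144, 181 and 148 CPM in stage 45 controls and at 235, 297 and 278 CPM in treated heads of that stage. At stage 47 the controls held 126, 126 and 146 CPM and the treated heads 227, 247 and 350 CPM. The treated libraries were higher throughout, and replicate 3 of stage 47 was the highest of all 12. The log2 fold change was 0.78 (SE 0.16) at stage 45 and 1.05 (SE 0.16) at stage 47. Its homeolog tyrp1.S (gene 108706951) had 1, 0 and 3 counts in stage 45 controls, 2, 4 and 4 in treated heads, 0, 1 and 0 in stage 47 controls, and 3, 3 and 3 in treated heads. These counts are at or near the limit of 3 counts that a count of 0 allows, and no fold is given for them.

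The melanosome matrix gene pmel was measured on both homeologs. In pmel.L (gene 734169) the stage 45 controls held 123, 145 and 115 CPM and the treated heads 192, 228 and 222 CPM. Stage 47 gave 89.0, 84.5 and 114 CPM in controls and 156, 187 and 238 CPM in treated heads. The copy pmel.S (gene 445868) followed the same order, with 79.9, 104 and 83.0 CPM against 138, 169 and 179 CPM at stage 45, and 53.6, 48.9 and 80.5 CPM against 104, 124 and 185 CPM at stage 47. For both copies every treated library exceeded every control library of its stage. The log2 fold changes at stages 45 and 47 were 0.74 (SE 0.16) and 1.02 (SE 0.16) for pmel.L, and 0.87 (SE 0.22) and 1.17 (SE 0.22) for pmel.S.

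The melanosome membrane gene mlana.L (gene 108714207) showed the widest difference of the tested members at stage 45. Its stage 45 controls held 8.46, 11.7 and 8.85 CPM and the treated heads 16.7, 21.3 and 26.7 CPM. At stage 47 the values were 6.07, 7.20 and 9.76 CPM in controls and 13.3, 17.2 and 20.9 CPM in treated heads. The groups did not overlap at either stage, and the log2 fold change was 1.16 (SE 0.22) at stage 45 and 1.15 (SE 0.23) at stage 47.

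The transporter slc24a5, a sodium, potassium and calcium exchanger that sets pigment level in zebrafish and humans, differed between its homeologs. In slc24a5.L (gene 108711395) the stage 45 controls held 7.08, 10.8 and 8.27 CPM and the treated heads 14.5, 17.8 and 18.3 CPM. At stage 47 the controls held 8.81, 8.03 and 7.62 CPM and the treated heads 11.6, 10.6 and 15.3 CPM. The treated libraries were above the controls at each stage, by a log2 fold change of 0.96 (SE 0.18) at stage 45 and 0.62 (SE 0.18) at stage 47. The copy slc24a5.S (gene 108712912) rested on 18 to 47 counts per library. Its levels were 3.38, 2.16 and 1.04 CPM in stage 45 controls and 2.95, 3.27 and 1.78 CPM in treated heads, and at stage 47 they were 1.91, 2.36 and 1.31 CPM against 1.49, 1.85 and 1.53 CPM. The groups of slc24a5.S overlapped at both stages, and its log2 fold change was 0.30 (SE 0.38) at stage 45 and -0.20 (SE 0.40) at stage 47. These signs turned when single libraries were left out, to -0.06 without control replicate 3 of stage 45 and to 0.02 without control replicate 2 of stage 47.

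The transporter gene slc45a2.L (gene 734429), which is mutated in a form of human oculocutaneous albinism, measured 15.6, 21.0 and 18.4 CPM in stage 45 controls and 26.4, 27.7 and 30.5 CPM in treated heads. Stage 47 gave 14.5, 13.6 and 19.8 CPM in controls and 24.8, 25.1 and 36.7 CPM in treated heads. The groups were again separate at both stages. The log2 fold change was 0.62 (SE 0.17) at stage 45 and 0.85 (SE 0.18) at stage 47.

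The receptor gene gpr143, which encodes a G protein-coupled receptor of the melanosome membrane and is mutated in human ocular albinism, also differed between its copies. In gpr143.L (gene 779220) the stage 45 controls held 11.2, 13.4 and 8.85 CPM and the treated heads 13.7, 12.54 and 12.7 CPM. Stage 47 gave 12.47, 11.4 and 9.70 CPM in controls and 11.9, 13.7 and 11.9 CPM in treated heads. These groups overlapped at each stage, with log2 fold changes of 0.23 (95% interval -0.11 to 0.57) and 0.16 (95% interval -0.18 to 0.50). The copy gpr143.S (gene 444242) measured 4.46, 5.49 and 4.91 CPM in stage 45 controls against 6.68, 8.78 and 10.6 CPM in treated heads. Stage 47 gave 4.57, 5.85 and 6.25 CPM against 6.08, 8.65 and 10.4 CPM. The groups of gpr143.S were separate at stage 45, and at stage 47 treated replicate 1 lay below control replicate 3. Its log2 fold change was 0.81 (SE 0.23) at stage 45 and 0.58 (SE 0.23) at stage 47.

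**Figure D2:**
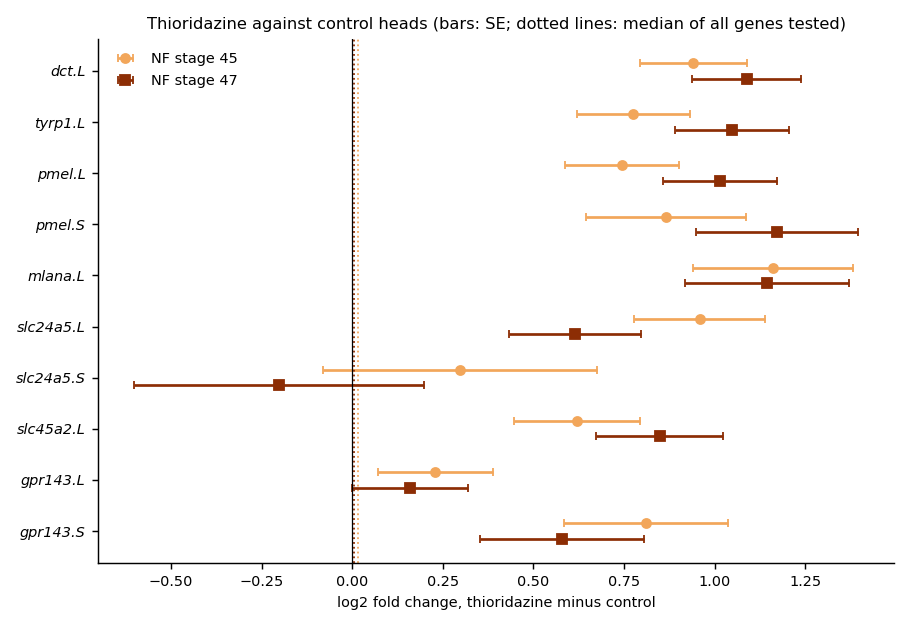
Log2 fold change of thioridazine against control heads for the 10 tested members (x axis: log2 scale; circles: NF stage 45; squares: NF stage 47; bars: SE; dotted lines: median over the 27050 genes tested, 0.01 and 0.00). The values of 8 members lie between 0.58 and 1.17 at both stages, and those of slc24a5.S and gpr143.L lie nearer to 0.

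All 10 tested members were higher in treated heads at stage 45, where 53.3% of all genes were, and 9 of 10 at stage 47, where 51% were. Their median log2 fold change was 0.79 at stage 45 and 0.93 at stage 47, beside medians over all 27050 genes of 0.01 and 0.00. Treated libraries lay above all control libraries for 8 of the 10 tested members at stage 45, where 4.19% of all genes did so, and for 7 of 10 at stage 47, where the share of all genes was 4.78%. The same 7 members did so at each stage, beside 0.651% of all genes. Since the members were chosen on this comparison, nothing is read from these counts.

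With the quasi-likelihood test of edgeR and Benjamini-Hochberg adjustment over all genes at 0.05, 0 of the 10 tested members were called at stage 45, where 0% of all genes were. At an unadjusted p under 0.05 there were 8 members and 5.33% of all genes, and DESeq2 called 6 members and 0.315% of the genes to which it gave an adjusted p. At stage 47 the test called 3 members, dct.L, tyrp1.L and pmel.L, where 0.0739% of all genes were called. With the replicate number as a block 3 members were called at stage 45, beside 0.0591% of all genes, and 6 at stage 47, beside 0.189%. With a separate block for each number within a stage 8 members were called at stage 45, beside 0.991% of all genes, and 6 at stage 47, beside 0.632%. In a fit of only the stage 47 groups 2 members were called, and pmel.L was not. That fit called 27 of all genes, against 20 in the main fit. The call of 3 at stage 47 fell to 0 without control replicate 1, 2 or 3 of stage 47 or without thioridazine replicate 3 of stage 47, and to 1 without thioridazine replicate 2 of stage 47. With 1 library left out, between 0 and 24 of all genes were called at stage 47.

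Libraries of the same replicate number showed the difference in nearly every member. At stage 45 the treated library was higher than the control library of its number for 10, 10 and 11 of the 11 members in replicates 1, 2 and 3, with median log2 differences of 0.66, 0.71 and 0.95. At stage 47 it was higher for 9, 10 and 11 members, with medians of 0.81, 0.95 and 1.06. The exceptions were slc24a5.S in replicate 1 of stage 45 and in replicates 1 and 2 of stage 47, and gpr143.L in replicate 2 of stage 45 and replicate 1 of stage 47. The 11 members include tyrp1.S, which had 0 to 4 counts per library. Since the members were chosen on this comparison and no share over all genes stands beside these counts, nothing is read from them.

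The summed level spread most widely in the thioridazine libraries of stage 47. In that group replicate 3 had the highest level of dct.L, tyrp1.L, pmel.L, pmel.S, mlana.L, slc24a5.L, slc45a2.L and gpr143.S, and the SD of the summed level was 169 CPM against 49.4 to 79.8 CPM in the other groups. Single members did not all follow: the SD of mlana.L was 5.02 CPM in treated heads of stage 45 and 3.82 CPM in those of stage 47. Without that library the log2 fold change of tyrp1.L at stage 47 was 0.84 and that of pmel.S was 0.90.

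Whether the treatment difference itself changed from stage 45 to stage 47 was tested in the same fit, as a contrast of both differences. Both differences were known when the members were chosen, so the values of this contrast are not free of that choice. No member was called out of 10 tested, beside 0% of all genes (edgeR quasi-likelihood test, adjusted p = 1.00 for each member). At an unadjusted p under 0.05 there were 0 members and 2.13% of all genes, and DESeq2 called 0 members and 0.0118% of its genes. The log2 fold change of thioridazine against control was higher at stage 47 than at stage 45 for 5 of the 10 members and for 49.1% of all genes. The change of the log2 fold change was 0.27 for tyrp1.L (95% interval -0.20 to 0.74), 0.27 for pmel.L (-0.20 to 0.74), 0.15 for dct.L (-0.30 to 0.60) and -0.02 for mlana.L (-0.70 to 0.67). For slc24a5.L it was -0.34 (-0.89 to 0.20). With 3 libraries per group, larger treatment differences at stage 47 by up to 0.60 for dct.L and 0.74 for tyrp1.L and pmel.L therefore lie within the intervals, as does a smaller one by up to 0.89 for slc24a5.L. For gpr143.L the interval was -0.55 to 0.41.

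The choice of members did not use the comparison of stage 45 with stage 47 directly. The same libraries enter the treatment differences known at that choice, so the stage values are not free of it. No member passed between stages in control or in treated heads. In controls 8 of the 10 tested members were lower at stage 47 and 2 higher, where 48.6% of all genes were higher, with a median log2 fold change of -0.23 beside -0.01 over all genes. The test called 0 members there, beside 6.24% of all genes. At an unadjusted p under 0.05 there were 3 members and 21.3% of all genes, and DESeq2 called 0 members and 9.56% of its genes. The lowest adjusted p was that of dct.L, whose mean went from 26.2 ± 4.90 CPM (SD, n = 3) at stage 45 to 18.7 ± 1.77 CPM (n = 3) at stage 47 (log2 fold change -0.48, 95% interval -0.81 to -0.15, edgeR adjusted p = 0.0785). Its control libraries did not overlap between stages, and neither did those of pmel.L, at 128 ± 15.7 against 95.8 ± 15.8 CPM (log2 fold change -0.41, adjusted p = 0.138). Control libraries of stage 47 lay below all those of stage 45 in 13.3% of all genes.

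In treated heads 8 of the 10 tested members were likewise lower at stage 47 and 2 higher, where 49.2% of all genes were higher, with a median log2 fold change of -0.19. All 10 overlapped between the stages, where 13.8% of all genes lay lower without overlap. The test called 0 of them beside 4.86% of all genes. At an unadjusted p under 0.05 there were 2 members and 19.6% of all genes, and DESeq2 called 0 members and 8.91% of its genes. The smallest adjusted p belonged to slc24a5.L, at 16.9 ± 2.05 CPM at stage 45 and 12.48 ± 2.46 CPM at stage 47 (log2 fold change -0.44, 95% interval -0.82 to -0.06, edgeR adjusted p = 0.179). Treated heads held nearly the same tyrp1.L level at both stages, 270 ± 31.7 and 275 ± 65.8 CPM, where the interval of the log2 fold change ran from -0.31 to 0.36.

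**Figure D3:**
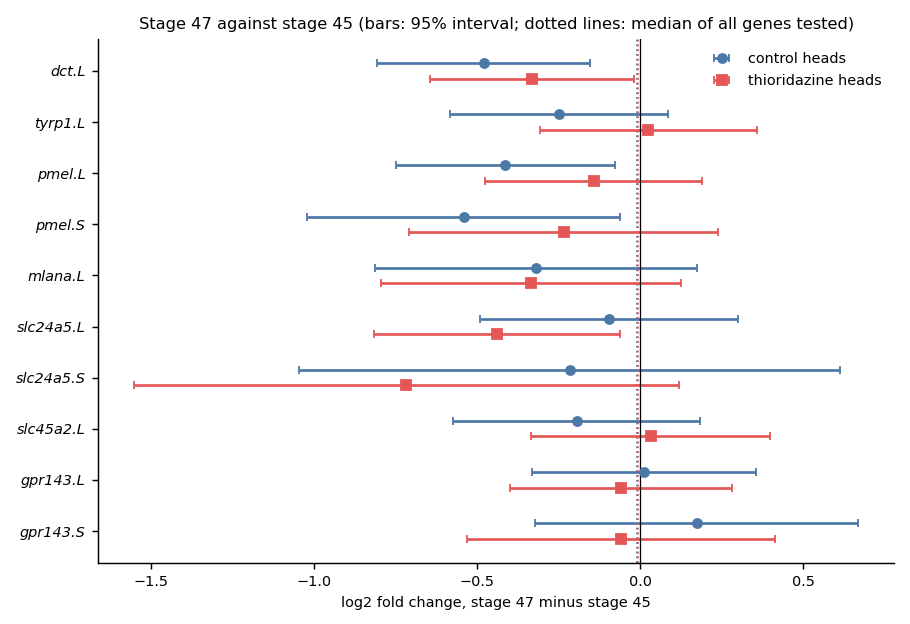
Log2 fold change of stage 47 against stage 45 for the 10 tested members (x axis: log2 scale; circles: control heads; squares: thioridazine heads; bars: 95% interval; dotted lines: median over all genes tested). Most values lie below 0, most intervals include 0, and no member passed the threshold in either treatment.

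The homeologs of a pair were compared as the share of the pair's counts that fell on the .L copy, a ratio within a library that no scaling between libraries can move. For pmel the share was 60.6, 58.3 and 58.0% in stage 45 controls and 58.1, 57.4 and 55.4% in treated heads, and at stage 47 it was 62.4, 63.3 and 58.6% against 60.0, 60.1 and 56.3%. In all 6 pairs of the same replicate number and stage the treated library had the lower share, by 0.975 to 3.24 percentage points. The gpr143.L share was also lower in treated heads in 6 of 6 pairs, by 4.19 to 12.1 points, with means of 68.9% and 60.2% at stage 45 and of 66.7% and 60.2% at stage 47. The slc24a5.L share was higher in 6 of 6 pairs, by 1.16 to 15.5 points. The tyrp1.L share was lower in 5 pairs and higher in 1. Without pairing, the control and treated shares of pmel, gpr143 and slc24a5 overlapped at each stage. For gpr143 at stage 45 they were 64.3 to 71.4% in controls and 54.6 to 67.2% in treated heads. The members were chosen with treatment differences known, and no homeolog pairs outside them were compared, so nothing is read from these counts of pairs.

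These shares rest on few reads for gpr143 and slc24a5. In control replicate 1 of stage 45 the slc24a5.L share was 67.6% (exact 95% binomial interval 59.1 to 75.4%, counting error only), and in the treated library of that number it was 83.1% (77.9 to 87.6%). This was the slc24a5 pair with the widest difference. In every other slc24a5 pair the binomial intervals overlapped. In replicate 2 of stage 45 they were 76.5 to 88.8% in the control and 79.9 to 88.4% in the treated library. For tyrp1 nearly all counts were on the .L copy, 99.9 to 100% in the 12 libraries. Homeologs are close in sequence and how reads that match both were counted is not given in the sources used here, so the split within a pair is uncertain. Between stages the .L share of pmel was 58.0 ± 1.69% (SD, n = 6) at stage 45 and 60.1 ± 2.57% (n = 6) at stage 47, which did not pass an exact two-sided permutation test within treatments (p = 0.08, adjusted over 4 pairs 0.32). The other 3 pairs had adjusted p-values of 0.74 in this exact test.

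**Figure D4:**
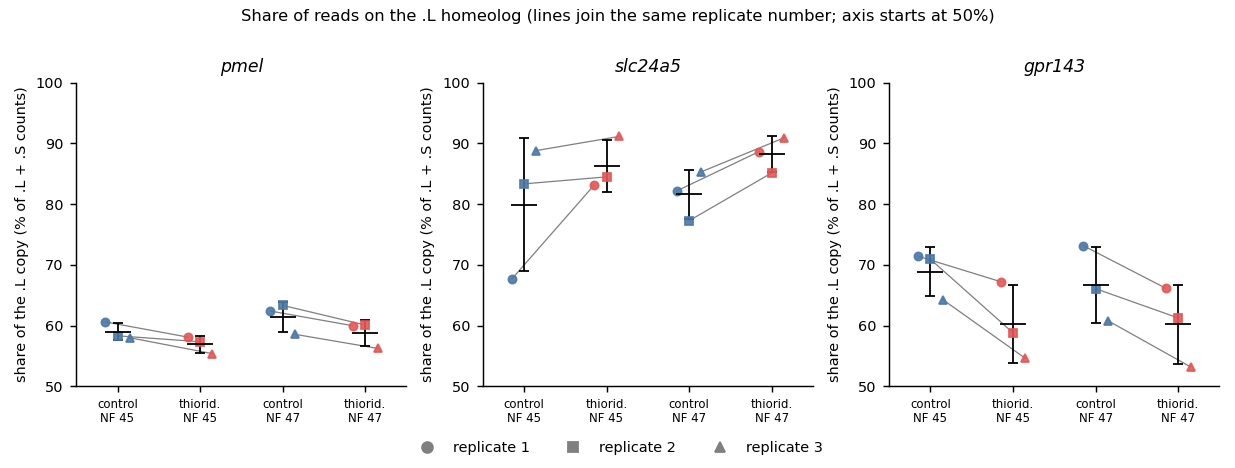
Share of counts on the .L homeolog of pmel, slc24a5 and gpr143 in the 12 libraries (y axis: percent of .L plus .S counts, drawn from 50%; x axis: the 4 groups; points: libraries by replicate number; grey lines join the same number; black bars: mean and SD, n = 3). All 6 lines slope down from control to treated for pmel and for gpr143, and all 6 slope up for slc24a5. The members were chosen with treatment differences known, so nothing is read from these counts.

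Across the 12 libraries the tested members varied together, apart from slc24a5.S and gpr143.L. The Pearson correlation of log2 CPM over the 45 pairs of tested members had a median of 0.86 and was highest between pmel.L and pmel.S (0.99) and between tyrp1.L and pmel.L (0.98). The lowest value, -0.10, was between slc24a5.S and slc45a2.L. After group means were removed, the median was 0.54, and tyrp1.L and pmel.L still varied together between replicates (0.93). These correlations describe libraries that share scaling and depth. Over the 12 libraries they also hold the treatment difference on which the members were chosen, so nothing is read from the median of 0.86.

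Outside the members, the genes with the profile most like the members' mean profile were sought among 20655 tested genes with a name, by Pearson's r of log2 CPM over 12 libraries. The closest were thbs3.L (gene 380339, a thrombospondin of the extracellular matrix, r = 0.902) and tspan36.S (gene 444208, a tetraspanin, r = 0.901). Next came ednrb2.S (gene 379394, which encodes a receptor for endothelins in pigment cell precursors, r = 0.875), rab38.S (gene 100381088, a small GTPase of melanosome traffic, r = 0.870) and rab1a.S (gene 108717623, a GTPase of early secretory traffic, r = 0.870). The median r over all candidates was 0.0345 and their 95th percentile 0.515. By Spearman's rho 2 of these 5 genes were again in the top 5, and with stage means removed 1 was, with ednrb2.S first. The members' mean profile, as z-scores, ran from -0.99 to -0.05 in control libraries and from 0.07 to 1.06 in treated ones. It thus holds the treatment difference on which the members were chosen, and removing stage means leaves that difference in. The ranking favours genes higher in treated heads and is given as a description.

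The machinery that builds and moves melanosomes had smaller median differences than the members. Since the members were chosen on this comparison, nothing is read from that order. Its list held 31 symbols and matched 37 genes, all tested, and 0 were called at either stage between thioridazine and control heads. At stage 45 31 of 37 were higher in treated heads with a median log2 fold change of 0.15, and at stage 47 27 of 37 with a median of 0.07. Over all genes 53.3% were higher at stage 45 and 51% at stage 47. The gene with the smallest p at stage 45 was rab38.S, with means of 5.26 ± 0.854 CPM in controls and 10.3 ± 3.02 CPM after thioridazine. From stage 45 to 47 in controls the test called 1 of these genes, mreg.L (gene 735112, melanoregulin), which rose from 17.7 ± 1.38 to 24.3 ± 2.12 CPM (edgeR adjusted p = 0.0327). Over all genes 6.24% were called there.

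The list of pigment lineage regulators held receptors, transcription factors, the ligands kitlg and edn3, and the hormone precursor pomc. Of its 25 matched genes 24 were tested. In treated heads 20 of 24 were higher at stage 45, with a median log2 fold change of 0.20, and 18 of 24 at stage 47, with a median of 0.17. Over all genes 53.3% were higher at stage 45 and 51% at stage 47. At stage 47 the test called ednrb2.S alone, with 28.6, 29.5 and 30.9 CPM in controls and 56.2, 54.5 and 70.5 CPM in treated heads, and at stage 45 it called 0. The stage 45 levels of ednrb2.S were 26.9, 30.5 and 32.1 CPM in controls and 44.1, 55.9 and 57.9 CPM in treated heads (log2 fold change 0.82). Over all genes 0.0739% were called at stage 47. The lineage factor mitf was sparse, with mitf.L at 0.424 to 0.557 CPM and mitf.S at 0.795 to 1.58 CPM as group means. Between the stages the pigment cell growth factor kitlg.L (gene 379817) rose from 19.5 ± 2.11 to 30.9 ± 5.18 CPM in controls (edgeR adjusted p = 0.0182) and from 20.7 ± 0.571 to 33.6 ± 5.98 CPM in treated heads (adjusted p = 0.0157). Its receptor kit.S (gene 373772) rose from 14.8 ± 2.41 to 24.8 ± 1.61 CPM in controls (adjusted p = 0.0194), and its means in treated heads were 16.0 ± 3.90 and 23.7 ± 2.66 CPM (adjusted p = 0.0660, not called). Between the stages kitlg.L and kit.S were the genes of this list called in controls, beside 6.24% of all genes. In treated heads kitlg.L alone was called, beside 4.86% of all genes.

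Genes of the other pigment cells of frogs, the yellow xanthophores and the reflecting iridophores, were represented by 11 matched genes, of which 10 were tested and 0 called between thioridazine and control heads. Their median log2 fold change was 0.10 at stage 45 and 0.09 at stage 47. The xanthine dehydrogenase gene xdh.S (gene 108717383), which takes part in purine and pteridine metabolism, had the smallest p at both stages. It measured 4.77, 11.1 and 8.09 CPM in stage 45 controls against 16.03, 16.2 and 12.8 CPM in treated heads, and 11.9, 13.8 and 13.4 CPM against 21.8, 24.1 and 24.8 CPM at stage 47. Its groups were separate at both stages, and it was not called at either. Between the stages the purine synthesis gene gart.L (gene 100101294) fell from 22.4 ± 0.493 to 14.9 ± 0.618 CPM in controls (edgeR adjusted p = 0.00982) and from 22.5 ± 2.01 to 15.2 ± 1.32 CPM in treated heads (adjusted p = 0.0128). Over all genes 6.24% were called between stages in controls and 4.86% in treated heads.

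Markers of the retinal pigment epithelium, the other melanosome-bearing tissue of the head, were higher in treated heads at stage 47 for 16 of 16 tested genes and at stage 45 for 10 of 16, with median log2 fold changes of 0.37 and 0.05 and 0 called at either stage. Over all genes 51% were higher at stage 47 and 53.3% at stage 45. The summed level of the epithelium's 17 genes ranged from 589 to 833 CPM in controls and from 741 to 909 CPM in treated heads at stage 45. At stage 47 it ranged from 539 to 613 CPM in controls and from 673 to 872 CPM in treated heads, and none of its genes was at 0 in all libraries. The ratio of treated to control sums was 1.11 at stage 45 and 1.32 at stage 47. The melanin and melanosome genes, which were chosen on this comparison, had ratios of 1.73 and 2.03. The visual cycle enzyme rpe65.L (gene 447613) stood at 53.8, 74.6 and 43.5 CPM in stage 47 controls and at 108, 86.1 and 64.3 CPM in treated heads. At stage 45 it stood at 93.8, 85.1 and 45.6 CPM against 108, 100 and 67.6 CPM. Its homeolog rpe65.S (gene 379961) measured 5.15, 7.03 and 6.78 CPM against 7.36, 7.73 and 6.44 CPM at stage 47. The groups of both copies overlapped at both stages. The part of this tissue in the members' difference was not tested.

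From stage 45 to stage 47 in controls the epithelium's genes were lower for 14 of 16, as were 8 of 10 members. Over all genes 48.6% were higher there and 6.24% were called. Of these epithelial genes rlbp1.S (gene 108712845), a retinoid carrier, fell from 129 ± 25.1 to 83.5 ± 7.37 CPM (edgeR adjusted p = 0.0287), and rlbp1.L (gene 380078) fell from 89.5 ± 20.5 to 59.6 ± 1.08 CPM (adjusted p = 0.0426). The part of this tissue in the members' values between stages was not tested.

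Lysosomal genes, whose proteins serve the organelle to which melanosomes are related, were higher in treated heads for 18 of 18 tested genes at both stages, with 0 called. Over all genes 53.3% were higher at stage 45 and 51% at stage 47. The lysosomal median log2 fold change was 0.24 at stage 45 and 0.23 at stage 47. The summed lysosomal level ranged from 1350 to 1616 CPM in controls and from 1767 to 1805 CPM in treated heads at stage 45. Between the stages the test called 4 of the 18 lysosomal genes in controls, beside 6.24% of all genes, and the same 4 in treated heads, beside 4.86%. All 4 were higher, among them psap.L (gene 447436), a precursor of lysosomal activators, which went from 325 ± 28.2 to 436 ± 28.0 CPM in controls (edgeR adjusted p = 0.0263). Photoreceptor genes were higher in treated heads for 7 of 16 at stage 45 and for 13 of 16 at stage 47. At stage 47 the cone kinase gene grk7.L (gene 100192358) was called, beside 0.0739% of all genes, with means of 19.7 ± 2.91 CPM in controls and 43.5 ± 3.18 CPM in treated heads. Its stage 45 means were 33.0 ± 4.22 CPM in controls and 45.2 ± 3.51 CPM in treated heads, not called. The fall of grk7.L in controls between the stages was called (edgeR adjusted p = 0.00644), beside 6.24% of all genes. In the stage 47 controls the CPM of the photoreceptor genes summed to 3970, 2517 and 4139, with replicate 2 the lowest. The melanin gene sum of that library, 325 CPM, was the lowest of the 12, beside 335 CPM in control replicate 1 of the same stage. Its summed level of retinal pigment epithelium genes, 613 CPM, was the highest of the stage 47 controls, beside 575 and 539 CPM in replicates 1 and 3. A list of head tissue genes, which also held rho of the photoreceptors, had 16 genes tested. In treated heads 13 of 16 were lower at stage 45 and 9 of 16 at stage 47, with 0 called. Among them the muscle creatine kinase gene ckm.L (gene 379765) measured 2348, 2917 and 1802 CPM in stage 45 controls and 1777, 1695 and 1405 CPM in treated heads, which did not overlap. Stage 47 gave 2597, 2068 and 2077 CPM in controls and 1846, 2213 and 1755 CPM in treated heads, which overlapped. The keratin copies krt12.5.L and krt12.5.S were among the 3 genes of this list that were higher at stage 45. There krt12.5.L measured 1029, 1007 and 1087 CPM in controls and 1278, 1362 and 1164 CPM in treated heads. For krt12.5.S the levels were 979, 1165 and 1205 CPM against 1261, 1587 and 1318 CPM. Neither copy overlapped at stage 45, and both did at stage 47. The part of these other tissues and organelles in the members' values was not tested.

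**Figure D5:**
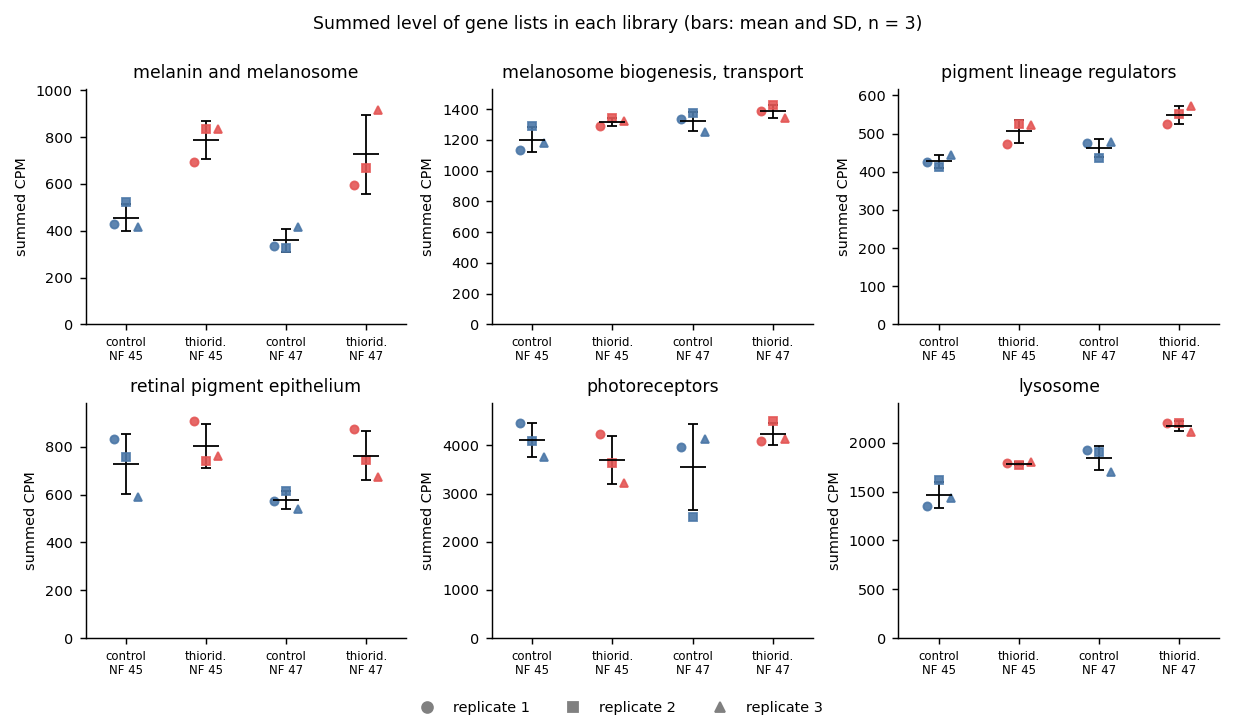
Summed CPM of 6 gene lists in the 12 libraries (y axis: summed TMM-scaled CPM, each panel on its own scale from 0; x axis: the 4 groups; points: libraries by replicate number; bars: mean and SD, n = 3). The melanin and melanosome genes separate treated from control heads at both stages with ratios of 1.73 and 2.03. The pigment lineage regulators (ratios of 1.19 and 1.19) and the lysosomal genes (1.22 and 1.18) also separate them at both stages. Genes within the lineage sum did not move alike. The control and treated means of ednrb2.S were 29.9 and 52.6 CPM at stage 45 and 29.7 and 60.4 CPM at stage 47. Of the 24 tested lineage genes 4 were lower in treated heads at stage 45 and 6 at stage 47. The ratios were 1.10 and 1.05 for melanosome biogenesis and transport and 1.11 and 1.32 for the retinal pigment epithelium. The melanin and melanosome genes were chosen on this comparison, so nothing is read from the order of these ratios.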

How the data were processed

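Whole-head RNA of 12 libraries was read as single-end reads of 100 bp, per the labels' protocols, with a kit that does not mark strand. The deposited values are raw counts of reads for each gene, and the authors named Trimmomatic, HISAT2, HTSeq and DESeq2, per the submitters' processing notes, with no versions. The sources used here give neither genome build nor annotation, so the gene table served for names alone (33597 of 37018 identifiers matched) and no coordinates are printed. Carriage returns in 3 files were removed. A library held 11998636 to 16933777 counts. Counts were fitted with edgeR 4.0.16 in R 4.3.3 (TMM, filterByExpr, robust quasi-likelihood), with all 12 libraries and 1 coefficient per group. Standard errors are the log2 fold change over the root of the F statistic, and intervals use its t quantile at 95%. Log2 CPM used a prior count of 2, and exact binomial intervals cover counting error only. In simulated counts of 27050 genes, 166 of 200 genes with a 2-fold change at stage 47 were recovered, with 12 false calls. In the data 20 genes were called at stage 47, so the cut on p was stricter than in the simulation. There mlana.L (2.21-fold) and pmel.S (2.25-fold) were not called, and the recovery does not carry over.

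Members and lists were chosen with earlier results of these data known. All members are named. From each other list come up to 3 called genes by smallest p or, with none called, the gene with the smallest p, and ednrb2.S, mitf and rpe65 whatever their values. The 5 genes of most similar profile are also named. Not every gene this allows is printed: psap.L and the tissue genes rho.L, col2a1.L, snap25.L, ckm.L, krt12.5.L and krt12.5.S were picked after values were seen.

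Replicate numbers were taken to pair control and treated libraries of a stage, since the correlation of deviations from group means was 0.18 to 0.586 in all 6 pairs, above 0.1. Between stages it was 0.0141 to 0.562, so no pairing was assumed there. The labels give replicate numbers and name no pairs, and values as high as 0.562 also occurred between stages. The pairing within a stage is therefore an assumption, on which the replicate blocks and the counts of pairs rest. The main fit holds no term for the pairs within a stage, which enter only the fits with replicate blocks. No 2 libraries were identical, and replicates differed by more than counting error (mean chi-square of 6.4 to 15.8). Alternatives were RLE scaling, upper-quartile scaling, DESeq2 1.42.0, other filters (none, or at least 1 CPM in at least 3 libraries), only the groups compared, homeologs summed, replicate blocks, and each library left out.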

Additional observations from a re-analysis of the deposited data

How the results depend on the processing

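Between thioridazine and control, members called at stage 45 went from 0 to 6 with DESeq2, 3 under the replicate block and 8 with a block for each number within a stage, and at stage 47 from 3 to 6 with each of these. All genes called went from 0 to 76, 16 and 268 at stage 45, and from 20 to 68, 51 and 171 at stage 47. Leaving out 1 library gave 0 to 0 members and 0 to 9 genes at stage 45, and 0 to 3 members and 0 to 24 genes at stage 47.

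From stage 45 to 47 in controls, the replicate block called 2 members (dct.L and pmel.S) and 3068 genes, and a fit of only the groups compared called 660 genes, against 0 and 1689. In treated heads it called 2704 genes and DESeq2 1976, against 1314. Leaving out 1 library gave 429 to 1768 genes in controls and 392 to 1738 in treated heads. For the change of the treatment difference DESeq2 called 4 genes and blocks within a stage 27, against 0. The replicate numbers of different stages share only a number, and the block is given for these contrasts on that footing. It changed no other call of a member between stages.

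Of 970 values of single members under the alternatives, 904 kept direction and side of the threshold, 28 newly passed it, 15 no longer passed it and 23 turned sign. With the replicate block the change of mlana.L (log2 scale) was 0.014, and 0.0036 with blocks within a stage. Leaving out 1 library gave -0.18 to 0.20 for it, -0.0077 to 0.280 for dct.L and -0.22 to 0.080 for gpr143.L. Likewise slc24a5.S ranged from -0.065 to 0.76 (treatment, stage 45), from -0.41 to 0.021 (stage 47) and from -0.58 to 0.24 (control stages). In control stages slc24a5.L ranged from -0.23 to 0.080 and gpr143.L from -0.14 to 0.16. In treated stages tyrp1.L ranged from -0.19 to 0.14, slc45a2.L from -0.18 to 0.13 and gpr143.S from -0.25 to 0.13. The causes were not tested. RLE and upper-quartile scaling, both other filters and summed homeologs kept the number of members called. A fit of only the groups compared took it from 3 to 2 at stage 47, where all genes called went from 20 to 27. That fit left 0 members called in the other contrasts fitted. Every scaling kept the members' mean summed levels within 1 SD. Depth limits tyrp1.S and slc24a5.S most, with at most 4 and 47 counts.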
